A study of Malus domestica with 34 samples.

Results

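Leaf and root gene expression were compared in apple (Malus domestica) seedlings of the Golden Delicious double haploid line GDDH18, sampled in the year after a season of recurrent drought. The comparison takes 10 of the 34 libraries of the study, chosen by their labels: 6 from leaf and 4 from root, all collected after one winter and before any new stress. Plants of the control regime had been kept near 80% soil water content, and these gave 3 leaf and 2 root libraries. Plants of the drought regime had gone through 3 cycles of 3 weeks at 45% of field capacity, each followed by 3 weeks of rewatering, and also gave 3 leaf and 2 root libraries. The regimes began at 12 weeks of age and covered 64 control and 61 droughted plants. The plants shared a genotype, a greenhouse and a soil mix, and were sown in 3 blocks that served as biological replicates. All 3 blocks were present in leaf, whereas control roots came from blocks 2 and 3 and droughted roots from blocks 1 and 3, because root material was scarce according to the labels. Regime and sowing block therefore overlap in part in root. The number of plants behind each library is not stated in the labels.

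Leaves fix carbon by photosynthesis, and in a deciduous tree such as apple they are grown anew after each winter. Roots take up water and mineral nutrients, anchor the plant and hold reserves through winter. These tasks rest on different cells, so mRNA from the 2 organs differs widely in most plants. In whole-organ RNA, fewer cells of a type and less RNA per cell cannot be told apart. The deposited identifiers, such as MD17G1244400, are not paired with gene names in the files, and none (0 of 52311) matched the gene table at hand, so functions, gene families and named leaf or root markers are not given.

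The 10 libraries held 32394824 to 68239819 counts each. Over 32818 genes, log2 levels correlated at 0.977 to 0.990 between leaf libraries, 0.964 to 0.982 between root libraries and 0.455 to 0.513 between a leaf and a root library. These correlations are across genes, which are not independent replicates. With no named markers, the tissue labels were checked with genes restricted to 1 tissue at the earlier samplings, meaning a mean of at least 10 CPM (counts scaled to a common library size) in each group of that tissue and at most 0.1 CPM in each library of the other. The 86 leaf-restricted genes summed to 4168 to 4792 CPM in next-year leaf libraries and 1.31 to 1.67 CPM in next-year root libraries. The 32 root-restricted genes summed to 599 to 1094 CPM in root and 0.172 to 0.280 CPM in leaf. No next-year library went against its tissue label.

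Leaf and root differed at most of the genes tested, nearly equally often in either direction. Of 32946 genes, 75.2% were called by edgeR's quasi-likelihood test with regime as a term (Benjamini-Hochberg adjusted p under 0.05). Leaf was higher for 12072 genes (36.6%) and root for 12709 (38.6%). The median called gene was 3.08-fold higher in leaf or 2.82-fold higher in root. These medians did not move when the 377 leaf-higher genes without a count in root, and the 532 root-higher genes without a count in leaf, were set to bounds from a floor of 3 counts over the 4 root or 6 leaf libraries.

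Large differences were also balanced between the tissues. Among called genes 5098 were at least 4-fold higher in leaf and 5002 in root, together 30.7% of the genes tested. A difference of at least 16-fold was reached by 2583 leaf-higher and 2567 root-higher genes, and of at least 256-fold by 743 and 797. At the other end, 3847 leaf-higher and 4320 root-higher genes were called with a difference under 2-fold. For 11028 genes (33.5%) the 95% interval of the difference lay within 2-fold in either direction. For 21334 genes (64.8%) the libraries of the tissues did not overlap, with every leaf library above every root library for 10464 genes and the reverse for 10870. When the libraries were scaled by their totals alone, without the TMM correction for composition, the median difference of all genes moved from -0.02 to -0.39 (log2) and the calls split into 8897 leaf-higher and 16192 root-higher genes. The near-even split thus holds relative to the TMM scaling.

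**Figure D1:**
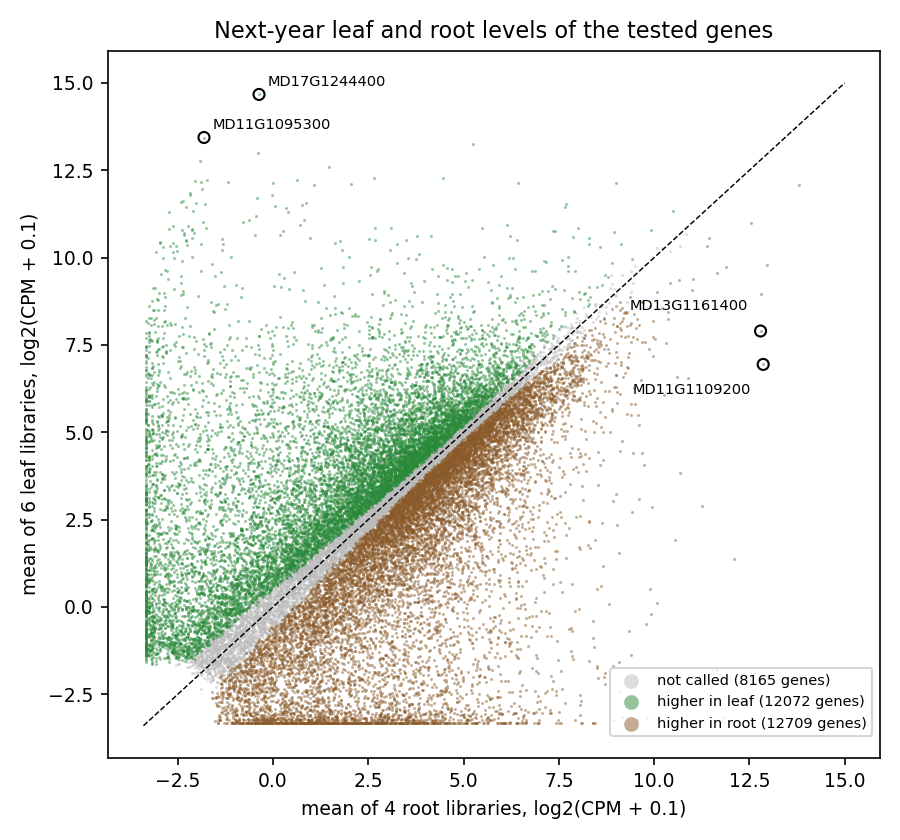
Mean level of each of 32946 tested genes in the 4 root (x axis) and 6 leaf (y axis) libraries of the next year, as log2(CPM + 0.1). Green points are the 12072 genes called higher in leaf, brown points the 12709 called higher in root and grey points those not called, the dashed line marks equal levels, and circles mark the 4 named genes.

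The balance did not hold at every level of expression. CPM values here are not corrected for gene length, so they give shares of the library rather than levels that can be ranked between genes. Of 152 genes with at least 1000 CPM in the tissue where they were higher, 112 were called higher in leaf and 35 in root. A difference of at least 16-fold was found for 95 of them in leaf and 15 in root, and for 86 and 21 genes when means were taken from CPM scaled by library totals. From 100 to 1000 CPM 486 genes were at least 16-fold higher in leaf and 199 in root, from 10 to 100 CPM 1000 and 949, and under 1 CPM 310 and 273. Between 1 and 10 CPM, unlike in the other ranges, more genes were at least 16-fold higher in root, 1131 against 692 in leaf. Counts for the ranges below 1000 CPM were taken with TMM scaling only, and the near-even ones hold relative to it. The 100 genes with the highest mean CPM in leaf and the 100 with the highest in root shared 8 genes, or 8% of each list. In the leaf list 94 genes were called leaf-higher and 4 root-higher, and in the root list 86 were called root-higher and 3 leaf-higher. Such lists hold the genes highest in 1 tissue by their making, so these counts are a description.

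Leaf transcripts were concentrated in fewer genes than root transcripts. In each leaf library 50% of all counts came from 700 to 1008 genes, and in each root library from 1289 to 1728. The effective number of genes, the exponential of the Shannon entropy of the count shares, was lowest at 4305, with a median of 4943 and a highest value of 5426 in leaf. In root it was 7784 and 7540 in control blocks 2 and 3, and 6766 and 6235 in droughted blocks 1 and 3. The tissues did not overlap, with means of 4960 ± 386 (SD, n = 6) in leaf and 7081 ± 712 (SD, n = 4) in root (exact two-sided permutation p = 0.00952, or 0.0143 adjusted over 3 measures); no lower raw p is possible with this number of libraries. The number of genes at 1 CPM or more was 24883 to 25675 in leaf and 25894 to 27100 in root, with the same exact permutation p = 0.00952 (adjusted 0.0143). Both control roots lay above both droughted roots in each of these measures, on 2 libraries of each that differ in part in block. The same measure was taken in the season before. The effective number of genes was 4717 to 6123 in leaf and 6771 to 9344 in root at the first sampling, without overlap. Among these roots the order of the regimes was reversed, with 8395 to 9344 in droughted and 6771 to 7966 in control plants. At the third sampling the effective number was 6526 to 7539 in 5 leaf libraries and 6548 to 8006 in the 6 root libraries, which overlapped. Control and droughted roots also overlapped there, at 6548 to 7373 and 6682 to 8006. The remaining leaf library of that sampling, from control block 2, stood apart at 1757, with 29.6% of its counts in 10 genes.

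No difference between the tissues was found in the share of counts held by the 10 most abundant genes of each library. The 10 genes with most counts took 7.41% to 8.81% of a leaf library, with a median of 8.06%. They took 6.50% and 7.51% of the control root libraries of blocks 2 and 3, and 8.48% and 8.36% of the droughted ones of blocks 1 and 3, so the tissues overlapped. The means were 8.03% ± 0.481 (SD, n = 6) and 7.71% ± 0.916 (SD, n = 4; exact two-sided permutation p = 0.514, 0.514 adjusted), and the sign of the difference turned without the control root library of block 2 (-0.0850 percentage points). With the 100 most abundant genes of each library the leaf share was larger by 7.26 percentage points (exact two-sided permutation p = 0.00952). The number of genes at 1000 CPM or more, scaled by library totals, was 108 to 114 in leaf libraries and 48 to 68 in root libraries.

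**Figure D2:**
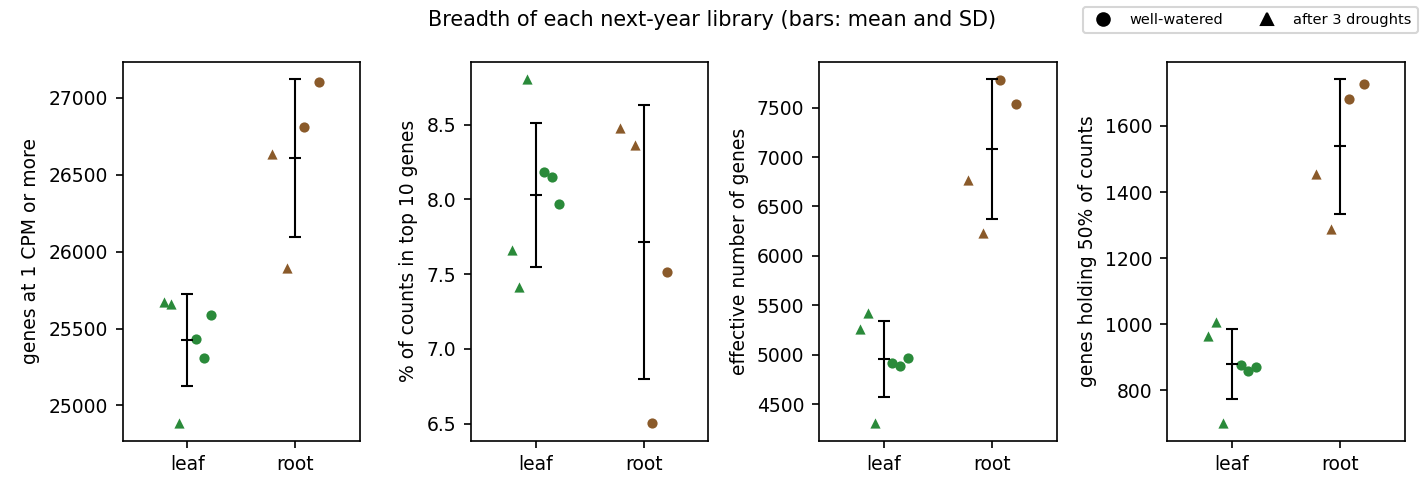
Breadth of each next-year library by tissue: genes at 1 CPM or more, percent of counts in the 10 most abundant genes, effective number of genes and number of genes holding 50% of counts; circles are control and triangles droughted plants, and bars give mean and SD. The 6 leaf and 4 root libraries overlap in the share of the 10 most abundant genes and in none of the other 3 measures.

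The 2 genes with the highest mean CPM in each direction, among called genes without overlap and with at least a 16-fold difference, illustrate the ends of this range. MD17G1244400 was at 22076 CPM in the lowest leaf library, 25891 CPM at the median and 29015 CPM in the highest. Its root values were 0.684 and 0.928 CPM in control blocks 2 and 3, and 0.901 and 0.187 CPM in droughted blocks 1 and 3. These values rest on 766700 to 1574250 counts in a leaf library and 10 to 49 counts in a root library. The log2 difference was 15.26 (SE 0.57, edgeR adjusted p = 9.25e-10).

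MD11G1095300 showed the same kind of contrast, with 9173 CPM in the lowest leaf library, 10984 CPM at the median and 12825 CPM in the highest. In root it stood at 0.307 and 0.118 CPM in control blocks 2 and 3 and at 0.257 and 0.0562 CPM in droughted blocks 1 and 3. All leaf libraries lay far above all root libraries, and the droughted root of block 3 was lowest for both of these leaf genes. The log2 difference of MD11G1095300 was 15.82 (SE 0.50, edgeR adjusted p = 3.27e-10).

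The 2 genes named on the root side were detected in leaf as well. MD11G1109200 was at 7674 and 7827 CPM in control root blocks 2 and 3, and at 7514 and 6757 CPM in droughted root blocks 1 and 3. In leaf it ranged from 86.3 CPM over a median of 113 CPM to 191 CPM. The tissues did not overlap, and the root mean of 7443 ± 475 CPM (SD, n = 4) stood against 123 ± 35.7 CPM in leaf (SD, n = 6), a log2 difference of -5.92 (SE 0.25, edgeR adjusted p = 2.4e-09). MD13G1161400 was at 6192 and 7351 CPM in control roots of blocks 2 and 3 and 7856 and 6970 CPM in droughted roots of blocks 1 and 3. Its leaf values ran from 136 CPM over a median of 203 CPM to 400 CPM. The libraries again did not overlap, with a log2 difference of -4.96 (SE 0.30, edgeR adjusted p = 4.42e-08).

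**Figure D3:**
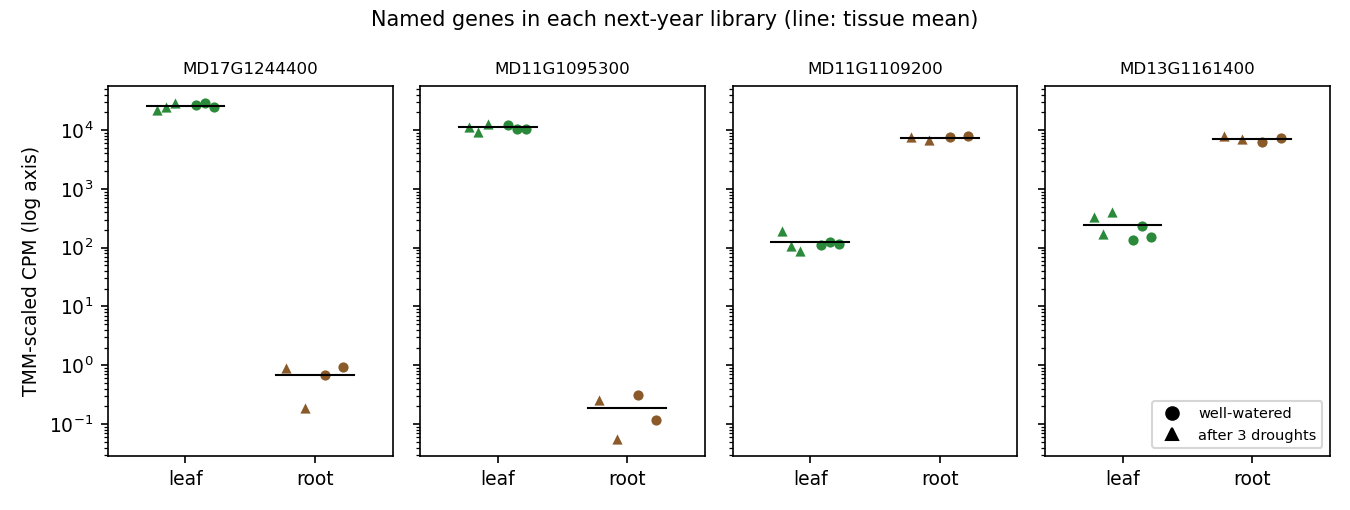
TMM-scaled CPM, on a log axis, of the 4 named genes in each next-year library; circles are control plants, triangles are plants after 3 droughts, and the line is the mean of the tissue. MD17G1244400 and MD11G1095300 lie at 9173 CPM or more in leaf and at 0.928 CPM or less in root, while MD11G1109200 and MD13G1161400 lie at 6192 CPM or more in root and between 86.3 and 400 CPM in leaf.

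In 4 cases leaf and root libraries had the same regime and block number, which was taken to pair them. The leaf-root difference of MD17G1244400 on the log2(CPM + 0.5) scale was 14.58 and 14.08 in control blocks 2 and 3, and 13.94 and 15.37 in droughted blocks 1 and 3. For MD13G1161400 it was -4.71 and -5.59 in control and -4.54 and -4.12 in droughted plants. All 4 pairs had the same direction for 96.7% of the 12072 leaf-higher genes and 96.1% of the 12709 root-higher genes, beside 77.8% of all tested genes. The called genes were chosen with these libraries, so the first 2 shares are a description. Each pair on its own had 3762 to 3994 genes at least 4-fold higher in leaf and 3408 to 3860 at least 4-fold higher in root.

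The libraries of root varied more among themselves than those of leaf. The biological coefficient of variation, edgeR's estimate of the spread between replicates as a fraction of the level, was 0.187 over the 6 leaf libraries and 0.316 over the 4 root libraries, each with regime as a term. The difference in spread was not tested. The closest pair of root libraries joined the regimes, control block 2 with droughted block 1 (r = 0.982 across genes).

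The tissue difference was then taken in each regime, as contrasts within a single fit of the 10 libraries. The group means compared had no library in common, but the filter, the scaling and the estimate of spread were shared. The calls of the regimes are therefore not fully independent. In control plants 21433 of 34289 genes were called (62.5%), 10211 higher in leaf and 11222 in root. In plants with 3 past droughts 22364 were called (65.2%), 10891 higher in leaf and 11473 in root. Of the genes tested in both the regime-specific and the pooled fit, 19043 were called in both regimes in the same direction, or 91.5% of the 20801 called in control and 87.6% of the 21729 called in droughted plants. The sign was shared by 99.6% of the genes called in control plants, and by 92.1% of all genes. For the named genes the control and droughted log2 differences were 15.04 and 15.52 for MD17G1244400, 15.59 and 16.14 for MD11G1095300, -6.04 and -5.79 for MD11G1109200, and -5.27 and -4.61 for MD13G1161400.

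Whether past drought altered the leaf-root difference was tested directly as the interaction of tissue and regime. Of 34289 genes, edgeR called 0 (0%). Before adjustment 1381 genes (4.03%) had p under 0.05 in that test, and 3860 (11.3%) with the sowing block as a term. By DESeq2 23 genes (0.0671%) were called. With the sowing block as a term edgeR again called 0, while DESeq2 called 455 (1.33%), of which 8 were among the 23. Without the droughted root library of block 1 edgeR called 12 genes, and without that of block 3 it called 1. The median half-width of the 95% interval of this interaction was 0.88 on the log2 scale, and it lay within 2-fold for 39.8% of genes. For most of the others the interval reached past 2-fold, so a change of that size is not excluded, and for 121 genes it lay wholly beyond 2-fold, without adjustment for the number of genes.

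The regime itself, averaged over both tissues, gave a similar picture. In the fit of 32946 genes edgeR called 0 genes (0%) between droughted and control plants, and 1157 (3.51%) reached p under 0.05 before adjustment, or 1855 (5.63%) with the sowing block as a term. By DESeq2 20 genes (0.0607%) were called, all higher in droughted plants. With the sowing block as a term edgeR called 11 (0.0334%), 9 higher and 2 lower in droughted plants, and DESeq2 called 45 (0.137%), with 6 genes in common. Without the droughted root library of block 1 edgeR called 6 genes, and 1 without the droughted leaf library of block 2. The 95% interval lay within 2-fold for 79.9% of genes.

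The same comparison in the season before used other libraries, 6 from each tissue after the first drought and 6 after the third. Leaf and root differed at 20283 of 32144 genes (63.1%) at the first sampling and at 20822 of 31955 (65.2%) at the third, with 23.9% and 24.7% of tested genes called and at least 4-fold apart. Over all genes tested, 9538 were called higher in leaf and 10745 higher in root at the first sampling, and 10047 and 10775 at the third. Of the next-year leaf-higher genes tested at the first sampling, 71.3% were called higher in leaf there and 1.24% higher in root. Of the next-year root-higher genes 70.9% were called higher in root and 1.80% higher in leaf. At the third sampling 79.0% of the leaf-higher and 77.0% of the root-higher genes were called in the same direction, and 0.226% and 0.374% in the opposite one. Of the 31247 genes tested at every sampling, 7212 were called higher in leaf at all 3 and 7437 higher in root. A further 30 genes had been called one way at both earlier samplings and the other way in the next year, 24 of them root-higher in the next year and 6 leaf-higher.

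With TMM scaling the leaf-root difference was wider in the next year than before. Over the 31247 genes tested at every sampling, the median size of the log2 difference was 0.98 in the next year, 0.74 at the first sampling and 0.78 at the third. A difference of at least 4-fold, called or not, was seen for 28.9% of these genes in the next year, 23.3% at the first sampling and 24.2% at the third. These sizes come from separate fits, with 4 root libraries in the next year and 6 at each earlier sampling. With scaling by totals alone 25089 of 32946 genes were called in the next year, 24564 of 32144 at the first sampling and 20457 of 31955 at the third. Of these calls 10335, 8086 and 7874 were at least 4-fold. The change was tested in a fit of all 34 libraries, as the next-year difference minus the mean of the earlier ones. It was called for 5776 of 35665 genes (16.2%), more positive in the next year, that is shifted towards leaf, for 2462 (6.90%) and more negative, shifted towards root, for 3314 (9.29%). The count was 3726 without the control root library of block 2 of the next year, split into 1428 and 2298, and 5337 without the control leaf library of block 2 of the third sampling, which stood apart in its count shares. With scaling by totals alone the called genes divided into 1265 and 3510. The count also depended on the reference. Against the first sampling alone 8103 genes were called, 4677 of them among the 5776. Against the third alone 3918 were called, 2998 of them among the 5776.

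With TMM scaling most called changes were a widening. Of the 5776 genes, 4436 (76.8%) kept the sign of the difference and had a larger one in the next year, 396 had a smaller one and 944 changed sign, beside 60.6% with a wider difference among all genes tested. Of those that widened, 1837 were higher in leaf and 2599 in root. Low values were frequent among them: in the next year root stood below 1 CPM for 564 of the 1837 genes, and leaf below 1 CPM for 985 of the 2599.

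Among the shifts towards root, the leaf level had moved more than the root level for 2714 of 3314 genes (81.9%). Among the shifts towards leaf it had moved more for 1662 of 2462 (67.5%), beside 59.2% of all genes tested. Tissue levels were compared between seasons on the log2(CPM + 0.1) scale, averaged over groups. They are given with TMM scaling only. The earlier leaf levels include the control leaf library of block 2 of the third sampling, which stood apart in its count shares. Among the 3314 genes that shifted towards root, the median change was -1.03 in leaf and 0.25 in root, and 1717 were at least 2-fold lower in leaf while 327 were at least 2-fold higher in root. Among the 2462 that shifted towards leaf, the median change was 0.56 in leaf and -0.29 in root, with 327 at least 2-fold higher in leaf and 170 at least 2-fold lower in root. Over all 35665 genes the medians were 0.01 and -0.03. Changes of at least 4-fold in the difference were called for 1450 genes (4.07%). Of these, 1114 were shifts towards root, with leaf at least 2-fold lower for 933, and 336 were shifts towards leaf. The leaf level had moved more than the root level for 85.1% of the 1114 and 50.9% of the 336.

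**Figure D4:**
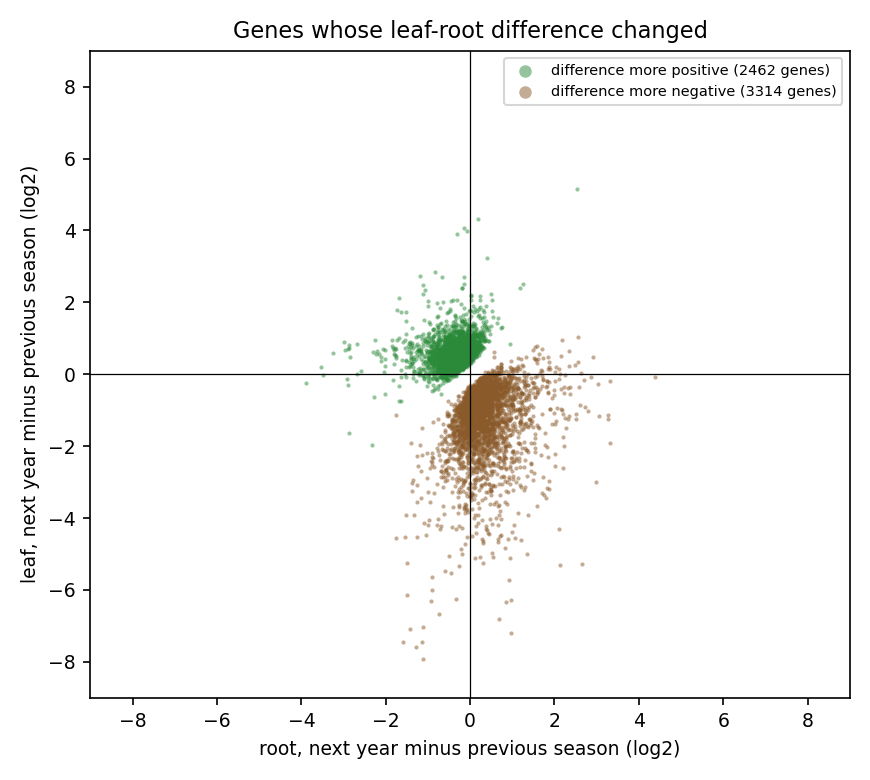
Change from the previous season to the next year in root (x axis) and leaf (y axis), on the log2(CPM + 0.1) scale, for the 5776 genes whose leaf-root difference changed. Brown points, the 3314 genes that shifted towards root, extend far down the leaf axis, and green points are the 2462 that shifted towards leaf.

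The largest named shifts towards root were in MD04G1142900 and MD04G1142300, by the rule of the 2 largest called values with a mean of at least 1 log2 CPM and 3 counts in every group. In next-year leaves MD04G1142900 ranged from 0 over a median of 0.0177 to 0.0772 CPM, in values scaled over all 34 libraries. In next-year roots it was at 17.5 and 84.9 CPM in control blocks 2 and 3, and 50.7 and 89.6 CPM in droughted blocks 1 and 3. The tissues did not overlap in that year, but in the season before leaf ranged from 0.0629 to 27.7 CPM and root from 0.932 to 18.6 CPM, so that the tissues overlapped. The leaf-root difference changed by -9.67 on the log2 scale (SE 1.25, edgeR adjusted p = 2.71e-05), while it was -0.06 at the first sampling (adjusted p = 0.961) and -1.72 at the third (adjusted p = 0.141). The leaf side of this value rests on 0 to 4 counts in each next-year library, and without the next-year control leaf library of block 1 the change was -11.43 (adjusted p = 0.000217). The -0.06 of the first sampling averages regimes of opposite direction. Group means there were 2.26 CPM in leaf and 9.52 CPM in root of control plants, against 17.3 and 4.83 CPM in droughted plants. At the third sampling they were 7.65 and 9.92 CPM in control and 1.97 and 17.4 CPM in droughted plants. This split by regime was not tested.

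MD04G1142300 followed a like course. Its next-year leaf values ran from 0 over a median of 0.0462 to 0.239 CPM, and its root values were 22.2 and 88.1 CPM in control blocks 2 and 3, and 47.4 and 225 CPM in droughted blocks 1 and 3. In the season before it ranged from 0.461 to 110 CPM in leaf and from 9.75 to 107 CPM in root. The direction differed between the regimes there. Mean leaf and root levels at the first sampling were 9.23 and 34.5 CPM in control and 56.6 and 26.7 CPM in droughted plants. At the third they were 72.0 and 44.3 CPM in control and 10.2 and 92.4 CPM in droughted plants. Leaf and root thus overlapped before and stood apart in the next year, with a change of -9.34 (SE 1.24, edgeR adjusted p = 3.84e-05). The identifiers of both genes are close to each other in number, and whether reads shared between near copies move them together was not tested.

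On the leaf side the rule named MD17G1034000 and MD02G1145100. MD17G1034000 was at 1105 CPM in the lowest next-year leaf library, 1697 CPM at the median and 2017 CPM in the highest. Its next-year root values were 0.211 and 0.0847 CPM in control blocks 2 and 3 and 0.183 and 0.0803 CPM in droughted blocks 1 and 3. Leaf medians had been 1225 CPM at the first and 612 CPM at the third sampling, and root values 0.256 to 7.36 and 0.239 to 3.58 CPM. All next-year roots thus lay below all earlier roots, while leaf overlapped with the first sampling, and the difference changed by 4.54 (SE 0.95, edgeR adjusted p = 0.00211). The next-year root values rest on 4 to 14 counts in a library, and the highest, 0.211 CPM, was close to the lowest earlier one, 0.239 CPM. Whether leaf RNA in earlier root libraries contributes was not tested.

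MD02G1145100 differed through leaf. It was at 0.0443 to 0.512 CPM in leaves of the first sampling, 2.70 to 8.49 CPM at the third, and from 12.4 over a median of 23.9 to 25.9 CPM in the next year. Root values were at most 0.478 CPM at any sampling, with 0.105 and 0.106 CPM in next-year control blocks 2 and 3 and 0.0686 and 0.0402 CPM in droughted blocks 1 and 3. Leaf libraries of the 3 samplings did not overlap with each other. The change of the difference was 4.28 (SE 0.91, edgeR adjusted p = 0.00236). It was 1.02 against the third sampling alone (adjusted p = 0.664) and 3.35 without the droughted root library of block 3 of the third sampling (adjusted p = 1.00), so the call was lost in both cases.

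**Figure D5:**
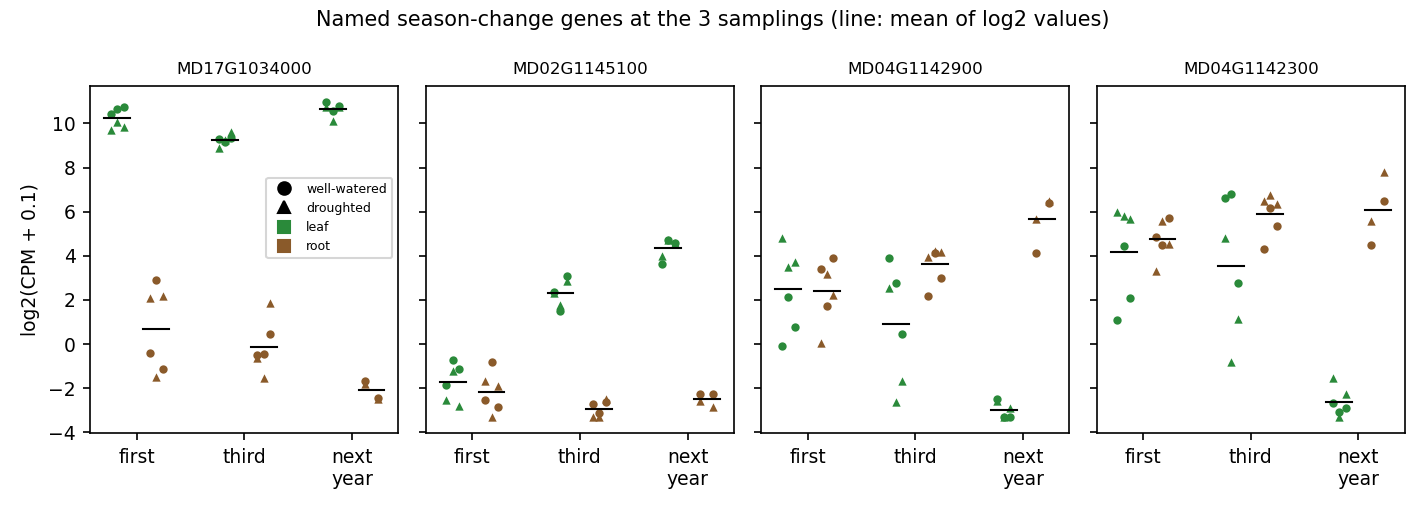
Levels of the 4 named season-change genes in each library, as log2(CPM + 0.1), in leaf (green) and root (brown) at the first sampling, the third and in the next year; circles are control plants, triangles are droughted plants and lines are means of the log2 values. The leaf values of MD04G1142900 and MD04G1142300 are at most 0.239 CPM in the next year.

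The genes named for the tissue difference changed over the seasons too, at very unequal levels. The difference of MD17G1244400 was larger in the next year by 4.01 (SE 0.84, edgeR adjusted p = 0.00204) and that of MD11G1095300 by 4.14 (SE 0.70, adjusted p = 0.000378). On the scaling over all 34 libraries, which differs from the next-year scaling used above for these genes, MD17G1244400 in root had a median of 5.12 CPM at the first sampling, 10.8 CPM at the third and 0.850 CPM in the next year, while its leaf medians were 22605, 16382 and 28098 CPM. In root MD11G1095300 had medians of 1.88, 2.18 and 0.201 CPM. For both the larger part of the log2 change thus lay in root levels that are a minute fraction of those in leaf, and whether leaf RNA in earlier root libraries contributes was not tested. MD13G1161400 changed by -2.36 (SE 0.46, edgeR adjusted p = 0.00109), with leaf medians of 942, 877 and 221 CPM and root medians of 5046, 5181 and 7684 CPM. For MD11G1109200 the change was -0.49 (SE 0.31, adjusted p = 0.294).

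Genes restricted to a tissue in the next year were more numerous than those restricted before. With the same limits of 10 and 0.1 CPM, 325 genes were leaf-restricted and 270 root-restricted in the next year, against 86 and 32 over the earlier samplings, where more groups and libraries had to meet the limits. Of the 325, 237 had at least 10 CPM in every earlier leaf group and 138 had at most 0.1 CPM in every earlier root library. Of the 270, 186 and 74 met these limits in earlier roots and leaves. In earlier leaf libraries the 270 root-restricted genes summed to 10.6 to 392 CPM, and in earlier root libraries the 325 leaf-restricted genes summed to 7.51 to 31.1 CPM. Since the genes were chosen as low in the next year, a higher value elsewhere is partly set by the choice.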

How the data were processed

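Whole-number estimated counts (expected counts) per gene were deposited by the authors for 34 libraries. The labels describe total RNA, a stranded mRNA kit and paired reads of 100 bp. FastQC, Salmon, DESeq and DESeq2 were used per the submitters' processing notes, which name no versions; build, annotation and settings are not given in the sources used here. Salmon splits reads among similar transcripts, so near-identical copies are uncertain.

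Next-year libraries were fitted with edgeR 4.0.16 (R 4.3.3; TMM, filterByExpr, robust glmQLFit and glmQLFTest) as regime plus tissue, or with a mean for each group for single regimes and their interaction. Earlier samplings had fits of their own, and the seasonal change used all 34 libraries. An adjusted p under 0.05 was called. Standard errors are the log2 value divided by the square root of F. DESeq2 1.42.0 was an alternative. Library measures were compared by exact permutation (SciPy 1.17.1). The steps were tested on simulated counts in which few genes differed. Such counts cannot show how the scaling behaves when most genes differ, as between leaf and root. Named genes, 2 per direction, were the most abundant called genes with at least 16-fold difference and no overlap, or, for the seasonal change, the largest called values; none was called for regime or interaction by the planned fit. The comparison, measures and rules were chosen with earlier results of these data known.

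Block numbers mark sowings per the labels, so equal numbers were taken to pair libraries. Deviations of leaf and root from their group means correlated within a block at 0.0975 to 0.219 in the next year (4 pairs), 0.173 to 0.320 at the third sampling (6 pairs) and -0.200 to 0.354 at the first (6 pairs). No values of unmatched blocks stand beside these, so they do not test the pairing. With 2 next-year root libraries in a regime the root deviations mirror each other, so the 4 next-year values are not independent. No 2 next-year libraries agreed within sampling noise (lowest chi-square per gene 13.3 over 45 pairs). Replicates came from separate sowings.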

Additional observations from a re-analysis of the deposited data

Results flagged for a closer look

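One value lay far from its group among 22 sets of leaf or root libraries that were looked at, where chance gives about 1 set in 20. MD11G1109200 stood at 191 CPM in the droughted leaf library of block 1, above the 86.3 to 125 CPM of the other leaf libraries, and remained far below every root library.

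The leaf-root difference itself differed between the next year and the season before for 5776 genes, by the direct test over all 34 libraries.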

How the results depend on the processing

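The direction and the calls of the 4 genes named for the tissue difference held in all 17 alternative fits of that comparison, with log2 values from 14.92 to 15.51 and 15.50 to 16.23 (leaf-higher) and from -6.11 to -5.83 and -5.09 to -4.85 (root-higher) over the 10 fits that leave out 1 library. Counts of tissue calls stayed within 1.5 times of the reported ones in every alternative run: leaving out 1 library gave 23700 to 24993 calls in the pooled comparison, 19032 to 22420 in control and 19816 to 22977 in droughted plants. Scaling by library totals gave leaf 35.5% of the pooled calls, 31.6% in control, 38.5% in droughted plants and 25.7% at the first sampling, against 48.7%, 47.6%, 48.7% and 47.0% with TMM.

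The sowing block as a term (the replicate block, taken to pair the libraries) gave 25160 pooled tissue calls and 6938 seasonal ones, and 23293 in the 4 matched pairs alone. Of the reported calls 24520 of 24781 and 5422 of 5776 were shared with that fit. For the regime term it gave 11 calls in place of 0, and no other count of edgeR calls moved by over 1.5 times. DESeq2 gave 23 calls for the interaction and 20 for the regime, and with the block, a choice made after seeing the data, 455 and 45; the cause was not tested. Leaving out 1 library gave 0 to 12 interaction calls, 0 to 6 regime calls and 3726 to 6388 seasonal calls, with 3726 and 3895 without the next-year control root of block 2 and droughted root of block 3. Over the same 34 fits the seasonal change ran from -11.43 to -8.68 for MD04G1142900, -10.00 to -8.57 for MD04G1142300, 3.92 to 4.96 for MD17G1034000 and 3.35 to 4.61 for MD02G1145100, of which the lowest value for MD02G1145100 was not called. With the first sampling alone as reference the seasonal count was 8103, and with the third alone 3918. The share of the 10 most abundant genes differed by -0.0850 to 0.574 percentage points when 1 library was left out, and that of the 100 most abundant by 7.26. Precision is limited in root by 2 libraries for each regime, with a biological coefficient of variation of 0.316 against 0.187 in leaf.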

Other observations

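Genes that follow each other in identifier order often differed between the tissues in the same direction. Of 2423 pairs of directly consecutive identifiers that were both called and at least 4-fold apart, 67.8% had the same direction. The share was 60.8% for identifiers 2 places apart (2125 pairs), 54.5% at 5 places, 49.7% at 10 places and 49.3% at 50 places. The sources used here do not say how identifiers were numbered, and the part of reads shared between similar copies in these shares was not tested.

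Grouped by the first 4 characters of the identifier, the share of tested genes called higher in leaf ran from 33.7% (MD04) to 39.3% (MD11).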
